A study of Mus musculus with 6 samples.

Results

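The 10 genes described here encode chaperones of the endoplasmic reticulum (ER) and components of the unfolded protein response (UPR): *Hspa5*, *Hsp90b1*, *Xbp1*, *Calr*, *Pdia3*, *Pdia4*, *Pdia6*, *Dnajb9*, *Sdf2l1* and *Herpud1*. They were chosen by name from the 54838 genes of a read count table, after assigning GENCODE symbols to its identifiers, and all 10 had enough counts to be tested. The samples were I1DN leukemic cells, a murine acute myeloid leukemia on a C57BL/6 background that carries IDH1R132H, DNMT3AR882H and NrasG12D, introduced as constructs into fetal liver progenitors. Both groups consisted of irradiated congenic recipients transplanted with these cells and shared all 3 mutant alleles. There were 3 vehicle-treated mice and 3 mice given AG636, an inhibitor of the pyrimidine synthesis enzyme DHODH, at 100 mg/kg body weight by mouth b.i.d. The labels name bone marrow and spleen as the source without saying which organ a sample came from, and the study's texts differ on the length of treatment and on the cKit and CD11b gate of the sort. The age of the mice and the promoters of the constructs are not given in the sources used here. By the study's methods the transplanted cells had been frozen from a moribund mouse, and their clonality is not given in the sources used here.

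Proteins that enter the ER fold with the help of an HSP70 chaperone (BiP, encoded by *Hspa5*), an HSP90 chaperone (GRP94, encoded by *Hsp90b1*), lectin chaperones that hold N-glycosylated clients and isomerases that form disulfide bonds. When unfolded proteins accumulate, the sensors IRE1, PERK and ATF6 are activated. ATF6 and the spliced form of XBP1 then induce chaperone and degradation genes, while PERK lowers translation and raises ATF4. Secretory cells such as plasma cells, and myeloid progenitors that fill granules with proteases, are known for high levels of ER chaperones.

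The promoters of these genes were searched because ATF6 and XBP1 are known to act through the ER stress element (ERSE) and its variant ERSE-II. The ERSE is CCAAT, any 9 bases and CCACG, and ERSE-II is ATTGG, any base and CCACG. Matches were likely in advance, because the chosen genes are known ER chaperone and UPR genes, the kind that ATF6 and XBP1 induce. The shares given beside the matches are therefore a description and were not tested. RefSeq promoter windows of GRCm38.p6, from 250 bases before to 50 bases after the transcript start, were found for all 10 genes and searched on both strands. A full ERSE was present in 4 of the 10 windows, against 39 of all 32851 windows (0.119%) and 14 of the 10916 windows of genes that were tested (0.128%). *Hsp90b1* had 2 matches on opposite strands. The matches are shown 5′ to 3′ on the strand that carries the motif. The ERSE is in capitals, with 5 flanking bases on each side. CCAAT and CCACG, 9 bases apart, are the letters that the search required, so that these 4 promoters share them is set by the search. The other windows of the 10 genes had no full ERSE.
*Hspa5*: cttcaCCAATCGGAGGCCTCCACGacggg
*Hsp90b1* (first): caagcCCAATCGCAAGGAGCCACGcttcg
*Hsp90b1* (second): actcaCCAATCGTGCCTCACCACGcactc
*Calr*: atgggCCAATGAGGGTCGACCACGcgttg
*Pdia6*: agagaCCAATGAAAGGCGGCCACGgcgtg
In the order listed, these matches lie at chr2:34772025-34772043, chr10:86705638-86705656, chr10:86705533-86705551, chr8:84847075-84847093 and chr12:17266491-17266509. Their first bases by gene direction lie 65, 212, 107, 162 and 98 bases before the RefSeq transcript start. That start can differ from the gene bounds given below, which come from the read count table. The *Hspa5* match lies within those bounds of *Hspa5*.

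*Herpud1* had an ERSE-II instead, a motif found in 12 of the 32851 windows (0.0365%) and in 0.0733% of the windows of tested genes, at chr8:94386377-94386387 and 52 bases before the start. It also had the letters of an ATF4-type element, TGATGNAA, on the opposite strand at chr8:94386317-94386324, which 3.97% of all windows and 2.2% of those of tested genes contain.
*Herpud1* ERSE-II: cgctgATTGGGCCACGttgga
*Herpud1* ATF4-type: cgggcTGATGCAAcccgc
The core of the XBP1 element (UPRE), TGACGTGG, was found in none of the 10 windows (0 of 10) and in 0.676% of all windows and 0.834% of those of tested genes. *Xbp1* and *Pdia3* had neither these motifs nor CCACG, the last 5 letters of the ERSE, which occurs in 32.8% of all windows and 47.2% of those of tested genes, and which lies within every ERSE and ERSE-II. *Pdia4*, *Dnajb9* and *Sdf2l1* had 1, 2 and 3 copies of CCACG without a full element. A match in this window is a description of the letters and was not tested as a binding site.

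**Figure D1:**
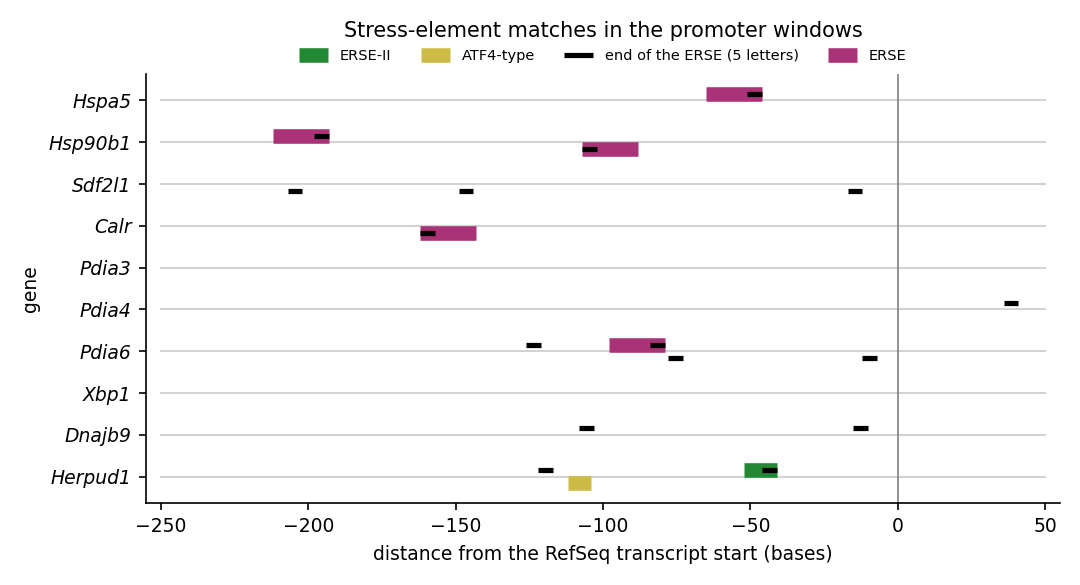
Positions of motif matches in the promoter windows of the 10 genes, as distance in bases from the RefSeq transcript start; bars above a gene's line match the gene's strand and bars below it the opposite strand. Full ERSE matches occur in *Hspa5*, *Hsp90b1* (2), *Calr* and *Pdia6*, an ERSE-II in *Herpud1*, and short black bars mark CCACG.

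Counts assigned to genes totalled between 4634963 and 7906589 per sample, which corresponds to a floor of 0.392 to 0.637 CPM (counts scaled to a common library size) for 3 counts, covering counting error only. The 10 genes had between 91 counts (*Dnajb9*) and 12947 counts (*Calr*) in a sample, well above this floor. CPM were scaled by TMM, and because the libraries capture the 3′ end of transcripts a longer gene does not give more counts. The cells expressed *Kit*, at 31.8 to 46.3 CPM, and *Mpo*, at 618 to 2772 CPM, and *Itgam*, which encodes CD11b, at 12.1 to 27.0 CPM with vehicle and 31.3 to 60.1 with AG636. In these bulk samples, fewer cells of a type and less RNA per cell cannot be told apart.

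With AG636, 4 of the 10 genes were called lower and 0 were called higher (edgeR's quasi-likelihood test, adjusted p under 0.05 over all 11092 genes tested). The genes called lower were *Sdf2l1*, *Hspa5*, *Pdia6* and *Hsp90b1*, which fell to between 0.530 and 0.670 of their vehicle level. The background is 11.0% of all genes tested called lower and 10.3% called higher. At an unadjusted p under 0.05, 7 of the 10 genes were lower and 0 were higher, and DESeq2 and limma-voom each called 4 lower and 0 higher. The fitted value was below 0 for 9 of the 10 genes, against 47.7% of all genes tested. The median log2 fold change of the 10 genes was -0.49, with a range from -0.92 to 0.30, and the median over all genes tested was 0.03. The CPM of the 3 vehicle and 3 AG636 mice did not overlap for 5 of the 10 genes, all lower with AG636, against 20.6% of all genes tested. A two-sided exact permutation test of 3 mice against 3 gives p = 0.1 for such genes, the smallest it allows. Leaving out AG636 replicate 3 left 1 of the 10 genes called (*Hspa5*), and leaving out vehicle replicate 1 raised the number to 6. Over all genes tested, calls of lower genes went from 1222 to 452 without AG636 replicate 3 and to 701 without vehicle replicate 1.

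**Figure D2:**
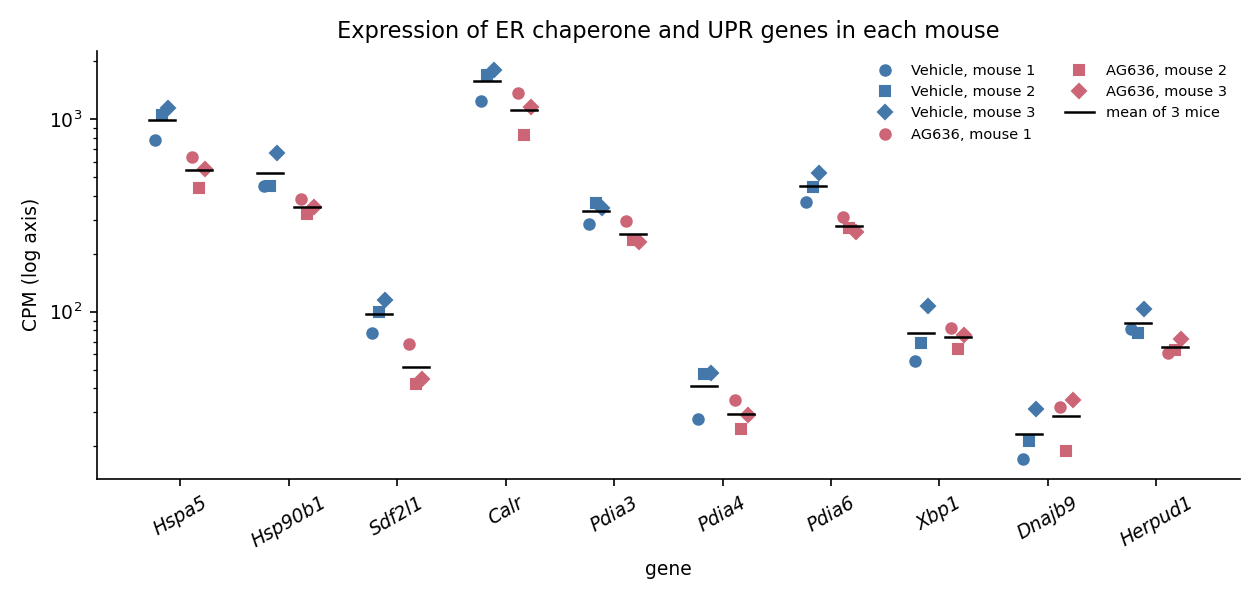
CPM (log axis) of the 10 genes in each mouse, vehicle in blue and AG636 in red, with black lines for the mean of 3 mice. The *Hspa5* values lie at 785 to 1144 with vehicle and 442 to 639 with AG636, whereas the *Xbp1* and *Dnajb9* values of the groups overlap.

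*Hspa5*, on chromosome 2 from 34771970 to 34777547 of mm10, encodes the HSP70 chaperone BiP, which also holds the UPR sensors inactive. It had 785, 1054 and 1144 CPM in the vehicle mice and 639, 442 and 551 CPM in the AG636 mice. Every AG636 mouse was below every vehicle mouse, and the means were 994 ± 187 and 544 ± 98.6 CPM (SD, n = 3 each). The log2 fold change was -0.87 (standard error, SE, 0.17, edgeR adjusted p = 0.00911). *Hspa5* was called lower in all 14 alternative analyses, with log2 fold changes from -1.03 to -0.74 and adjusted p from 1.27e-09 to 0.0394. It was the only one of the 10 genes for which this held.

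*Hsp90b1*, on chromosome 10 from 86690209 to 86705509, encodes GRP94, the HSP90 of the ER lumen, which folds integrins and Toll-like receptors. It had 452, 453 and 671 CPM with vehicle and 385, 321 and 349 CPM with AG636. The groups did not overlap, although vehicle replicate 3 stood well above the other two vehicle mice. The log2 fold change was -0.58 (SE 0.16, edgeR adjusted p = 0.0327). With library size alone as the scaling it was -0.49 with an adjusted p of 0.0608 (edgeR). Without vehicle replicate 3 it was -0.39 with an adjusted p of 0.0577, and leaving out AG636 replicate 1, 2 or 3 gave adjusted p of 0.0616, 0.0714 and 0.0951 (edgeR). Its exons overlap 1810014B01Rik on the opposite strand by 1796 bases, a gene with 728 counts in total against 14431 for *Hsp90b1*. The use of strand in the authors' counting is not stated, so a small part of these reads may belong to either gene.

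*Sdf2l1*, on chromosome 16 from 17130138 to 17132383, encodes a small ER lumenal protein that works with BiP and the cochaperone DNAJB11. It had 77.2, 99.4 and 115 CPM with vehicle and 68.0, 42.1 and 44.7 CPM with AG636. The groups did not overlap, and AG636 replicate 1 was closer to the vehicle mice than the other AG636 mice were. Its log2 fold change of -0.92 was the lowest of the 10 genes (SE 0.21, edgeR adjusted p = 0.0158). The adjusted p was 0.0539 without vehicle replicate 2 and 0.0636 without AG636 replicate 3 (edgeR). Counts of *Sdf2l1* per 100 counts of *Hspa5* in the same library lay between 9.43 and 10.1 with vehicle and between 8.12 and 10.6 with AG636, so the proportion of these transcripts overlapped between the groups.

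The lectin chaperone calreticulin and its partner isomerase had lower means with AG636, but did not pass the threshold. *Calr*, on chromosome 8 from 84841850 to 84846934, had 1251, 1693 and 1801 CPM with vehicle and 1373, 832 and 1164 CPM with AG636. AG636 replicate 1 was above vehicle replicate 1, and the log2 fold change was -0.49 (SE 0.19, edgeR adjusted p = 0.0857). Without vehicle replicate 1 the log2 fold change of *Calr* was -0.65 with an adjusted p of 0.0462 (edgeR). *Pdia3*, on chromosome 2 from 121413775 to 121438687, encodes ERp57, which forms disulfide bonds in clients held by calreticulin and calnexin and belongs to the MHC class I peptide-loading complex. It had 287, 369 and 347 CPM with vehicle and 297, 237 and 230.3 CPM with AG636. Again AG636 replicate 1 exceeded vehicle replicate 1, and the log2 fold change was -0.39 (SE 0.14, edgeR adjusted p = 0.0721).

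Of the other two isomerases, *Pdia6* was called lower and *Pdia4* was not. *Pdia6*, on chromosome 12 from 17266545 to 17284770, encodes an isomerase that associates with BiP and acts on IRE1. It had 371, 445 and 529 CPM with vehicle and 311, 271 and 259 CPM with AG636. The groups did not overlap, and the log2 fold change was -0.68 (SE 0.14, edgeR adjusted p = 0.0126), with an adjusted p of 0.0536 without AG636 replicate 3. *Pdia4*, on chromosome 6 from 47796141 to 47813430, encodes ERp72. It had 27.8, 47.3 and 48.1 CPM with vehicle and 34.8, 24.7 and 28.9 CPM with AG636. Vehicle replicate 1 lay within the range of the AG636 mice, and the log2 fold change was -0.48 (SE 0.23, edgeR adjusted p = 0.158). Without vehicle replicate 1 the log2 fold change of *Pdia4* was -0.71 with an adjusted p of 0.0402 (edgeR).

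*Xbp1*, *Dnajb9* and *Herpud1* stand for the signalling and degradation side of the UPR, and none of the 3 passed the threshold. *Xbp1*, on chromosome 11 from 5520659 to 5525893, encodes the transcription factor whose mRNA is spliced by IRE1. It had 55.4, 69.1 and 107 CPM with vehicle and 82.0, 64.1 and 75.7 CPM with AG636. All AG636 mice lay within the vehicle range, and the log2 fold change was -0.06 (SE 0.22, edgeR adjusted p = 0.871). Its direction turned with single mice and with the scaling, to 0.22 without vehicle replicate 3, 0.03 without AG636 replicate 2 and 0.02 with library size alone. Counts per gene from the 3′ end do not separate the spliced from the unspliced form of *Xbp1*, so splicing was not measured.

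*Dnajb9*, on chromosome 12 from 44205559 to 44210326, encodes the BiP cochaperone ERdj4, a known target of spliced XBP1 that restrains IRE1. It had 17.1, 21.2 and 31.3 CPM with vehicle and 31.9, 18.8 and 34.9 CPM with AG636. It was the only one of the 10 genes with a fitted value above 0, a log2 fold change of 0.30 (SE 0.28, edgeR adjusted p = 0.457), and the groups overlapped. *Herpud1*, on chromosome 8 from 94386438 to 94395377, encodes a membrane protein that assembles the ER-associated degradation complex. It had 81.7, 77.3 and 103 CPM with vehicle and 61.0, 63.1 and 71.9 CPM with AG636. The groups did not overlap, but the log2 fold change of -0.41 did not pass the threshold (SE 0.15, edgeR adjusted p = 0.0704).

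**Figure D3:**
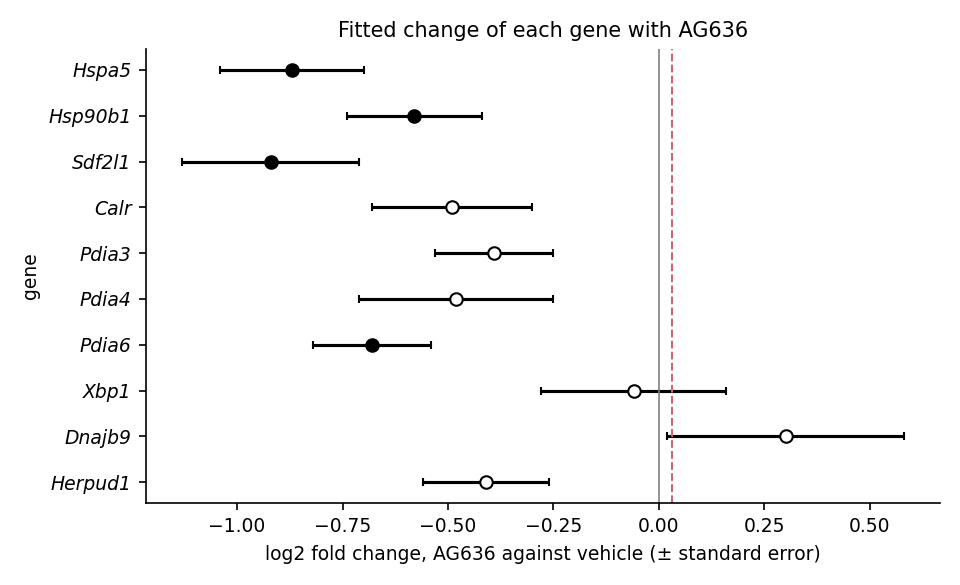
Log2 fold change with AG636 for each gene, with its SE; filled points passed the threshold, the grey line is 0 and the dashed line is the median of all genes tested, 0.03. *Sdf2l1*, *Hspa5*, *Pdia6* and *Hsp90b1* are filled and lie between -0.92 and -0.58, and *Xbp1* and *Dnajb9* lie at -0.06 and 0.30.

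Proportions within a library do not depend on the scaling, and 7 of them were computed against *Hspa5*. For every 100 counts of *Hspa5* there were 2.18, 2.01 and 2.74 counts of *Dnajb9* with vehicle and 4.99, 4.24 and 6.34 with AG636. The corresponding counts of *Xbp1* were 7.06, 6.55 and 9.37 with vehicle and 12.8, 14.5 and 13.7 with AG636. For *Calr* they were 159, 161 and 158 with vehicle and 215, 188 and 211 with AG636. In these proportions, and in those of *Hsp90b1* and *Pdia4*, all AG636 mice were above all vehicle mice, whereas those of *Sdf2l1* and *Herpud1* overlapped. *Hspa5* itself was lower with AG636 (log2 fold change -0.87), so a gene that fell less or did not change has a higher proportion with AG636. The higher proportions are therefore no separate result about these genes. The proportions were chosen after the values of the genes were seen and were not tested.

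The 10 genes also varied together among mice of the same group. Vehicle replicate 1 had the lowest vehicle value for 9 of the 10 genes, and vehicle replicate 3 the highest for 9. In the AG636 group, replicate 1 was highest for 8 genes and replicate 2 lowest for 7. The summed level of the 10 genes was 3406, 4329 and 4896 CPM with vehicle and 3282, 2316 and 2809.8 CPM with AG636, so AG636 replicate 1 lay close to vehicle replicate 1. The sum of 9 markers of immature myeloid cells, most of it from granule genes, had the same order within groups, at 2539.6, 4661 and 5075 CPM in the vehicle mice and 5309, 2017 and 4195 CPM in the AG636 mice. The granule protease genes *Elane*, *Prtn3* and *Ctsg* had this order in both groups, and *Kit*, *Cd34*, *Ptprc*, *Myb*, *Flt3* and *Mpo* did not have it in at least 1 group. The sum of 8 erythroid markers had the reverse order among the vehicle mice, at 4772, 3059 and 1693 CPM. With AG636 the erythroid sums were 2465, 3274 and 1966 CPM, neither the same nor the reverse order. The sum of 9 neutrophil markers had the same order with vehicle (1042, 2113 and 2384 CPM) but not with AG636 (5930.2, 3116 and 2908 CPM). *Mpo*, a granule protein that folds in the ER with calreticulin and calnexin, had 1252, 2772 and 2771 CPM with vehicle and 2022, 618 and 1704 CPM with AG636. Its log2 fold change was -0.65 (edgeR adjusted p = 0.266), and it was the only one of the 8 tested immature markers below 0. The other 7 were above 0, and the median of the list was 0.37. The part of this variation in the comparison was not tested.

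**Figure D4:**
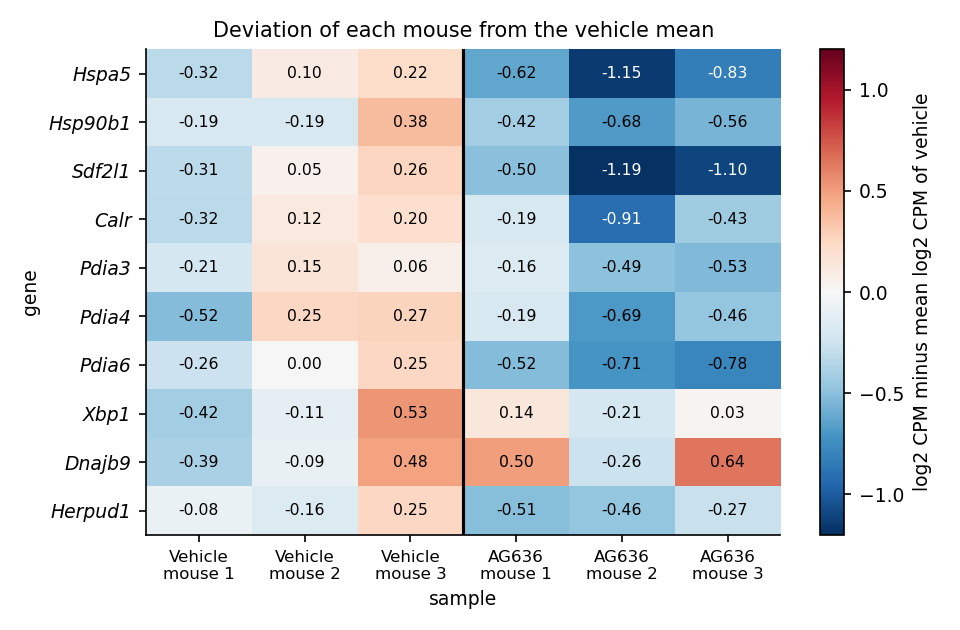
Each cell gives the log2 CPM of a gene in a mouse minus the mean log2 CPM of the 3 vehicle mice; blue is lower and red higher. Vehicle mouse 1 is below the vehicle mean for every gene, and the lowest values are those of *Sdf2l1* and *Hspa5* in AG636 mouse 2, at -1.19 and -1.15.

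Markers of other cells differed between the groups in part, and the background for the counts that follow is 11.0% of all genes tested called lower and 10.3% called higher. Of 9 markers of mature neutrophils 7 were called higher with AG636, and their summed level was 1042 to 2384 CPM with vehicle and 2908 to 5930.2 with AG636. Of 8 erythroid markers 2 were called lower, and their sum ranged from 1693 to 4772 CPM with vehicle and from 1966 to 3274 with AG636. Of 4 megakaryocyte markers 2, *Itga2b* and *Gp9*, were called higher, and the sums of the 4 were 774 to 1203 CPM with vehicle and 1045 to 1698 with AG636. *Ppbp* went the other way without overlap, at 38.7 to 69.7 CPM with vehicle and 23.6 to 37.6 with AG636. It was not called (log2 fold change -0.74, edgeR adjusted p = 0.0534), and the groups overlapped for *Pf4*. Of 6 stromal and endothelial markers 2 were tested, and 1 of these, *Pdgfrb*, was called higher. The 6 markers had sums of 109.7 to 185 CPM with vehicle and 159.7 to 259 with AG636, while *Cdh5* and *Lepr* had 0 counts. The 7 monocyte markers had sums of 25.3 to 34.0 and 32.9 to 56.1 CPM, and of the 4 tested none was called (0 by edgeR, DESeq2 and limma-voom, and 0 at an unadjusted p under 0.05). The 10 B and plasma cell markers had sums of 33.9 to 63.3 CPM with vehicle and 26.8 to 107 with AG636, of which 0 of 2 tested were called by any of the 3 tools. The 2 tested, *Ighm* and *Igkc*, had 7.84 to 29.7 and 12.5 to 66.8 CPM over all mice. The plasma cell genes *Sdc1* and *Tnfrsf17* had at most 0.206 and 0.212 CPM, below the floor, and *Jchain* 1.06 to 5.16 CPM. *Prdm1*, with too few counts to be tested, had 0.357 to 0.785 CPM with vehicle and 1.32 to 3.3 with AG636. Of 7 T and NK cell markers, *Nkg7* made up nearly all of the sums of 193 to 332 and 258 to 493 CPM, and *Cd3e* had at most 0.619 CPM. Of the immature markers, *Ptprc* was called higher. The part of the neutrophil, erythroid and megakaryocyte differences in the results for the 10 genes was not tested.

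The rest of the pathway was described by 7 lists with 102 genes, of which 97 were tested. With AG636, 21 of these genes were called lower and 1 higher, against 11.0% and 10.3% of all genes tested, and their median log2 fold change was -0.17. Without AG636 replicate 3, 8 genes were called lower and 0 higher, and without vehicle replicate 2, 13 were called lower. Of the 21, 5 were other chaperones, 5 belonged to the PERK-ATF4 arm and 6 to N-glycosylation.

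**Figure D5:**
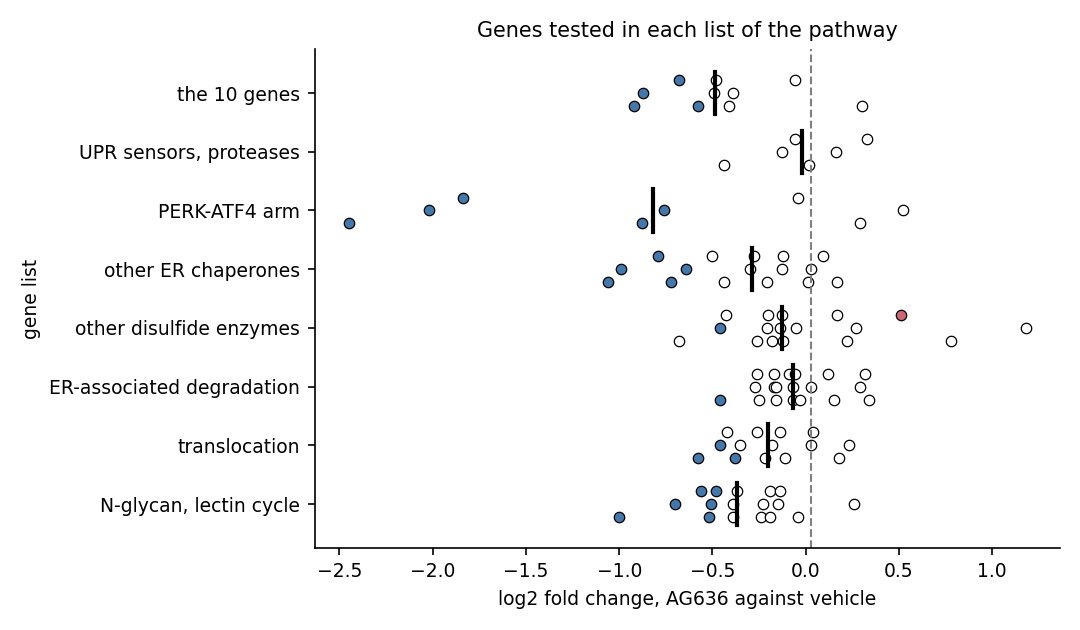
Log2 fold change with AG636 for each tested gene in the 10 genes and in 7 further lists; blue points were called lower, the red point (*Qsox1*) higher and open points not called. Black bars are list medians, from -0.82 for the PERK-ATF4 arm to -0.02 for the sensors, and the dashed line is the median of all genes tested.

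Of the 6 sensors and activating proteases none was called (0 by edgeR's quasi-likelihood test, 1 by DESeq2 and by limma-voom, and 1 at an unadjusted p under 0.05, each time lower), and the median log2 fold change was -0.02. *Ern1*, which encodes IRE1, had 27.6, 48.0 and 44.5 CPM with vehicle and 45.0, 36.1 and 53.0 with AG636. *Atf6* had 23.2, 17.8 and 25.1 CPM with vehicle and 18.1, 22.1 and 20 with AG636. *Eif2ak3*, which encodes PERK, had 9.81, 4.19 and 7.73 CPM with vehicle and 7.43, 5.77 and 8.49 with AG636. The groups overlapped for each of these genes, whose log2 fold changes were 0.16, -0.13 and 0.02 (SE 0.22, 0.19 and 0.34, edgeR adjusted p = 0.643, 0.664 and 0.974). *Atf6b*, named after its values were seen, had 138, 152 and 159.9 CPM with vehicle and 119, 90.7 and 121 with AG636. Its groups did not overlap, and the log2 fold change of -0.44 was just outside the threshold (SE 0.14, edgeR adjusted p = 0.0502).

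In the PERK-ATF4 arm, 5 of the 8 genes tested were called lower and 0 higher, also by DESeq2 and limma-voom, with 1 higher at an unadjusted p under 0.05. The edgeR background is 11.0% of all genes tested called lower and 10.3% called higher. *Atf4*, the transcription factor translated when PERK is active, had 387, 387 and 355 CPM with vehicle and 204, 243 and 165 CPM with AG636. Its log2 fold change was -0.88 (SE 0.15, edgeR adjusted p = 0.00517). *Ddit3*, which encodes CHOP, had 58.7, 46.4 and 43.9 CPM with vehicle and 28.7, 29.7 and 29.8 with AG636, a log2 fold change of -0.76 (SE 0.16, edgeR adjusted p = 0.0125). *Mars* overlaps *Ddit3* on the opposite strand by 261 bases and had 3750 counts in total against 1331, so these counts are uncertain. *Mars* was itself called lower (log2 fold change -0.94, edgeR adjusted p = 0.00329), and its part in the *Ddit3* counts was not tested. The ATF4 and CHOP targets *Trib3* and *Chac1* had log2 fold changes of -1.84 and -2.45 (edgeR adjusted p = 0.0194 and 0.0114). *Chac1*, near the floor with AG636, rests on 18, 22 and 26 counts with vehicle and 2, 5 and 3 with AG636. The fifth gene, *Nupr1*, was named after its values were seen and had 29, 27 and 18 counts with vehicle and 1, 7 and 7 with AG636. With at least 10 counts in every sample required, *Chac1*, *Trib3* and *Nupr1* were not tested and the median of the list changed from -0.82 to -0.04. *Ppp1r15a*, the phosphatase subunit that reverses the PERK signal, had a log2 fold change of 0.52 and was not called (edgeR adjusted p = 0.103).

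Among 16 other ER chaperones and cochaperones, 5 were called lower and 0 higher, also by DESeq2 and limma-voom (0 higher at an unadjusted p under 0.05), with a median of -0.29. By edgeR, 11.0% of all genes tested were called lower and 10.3% higher. *Hyou1*, the nucleotide exchange factor of BiP, had 195, 219.7 and 232 CPM with vehicle and 123, 106 and 96.3 with AG636. *Dnajb11*, the BiP cochaperone ERdj3, had 112, 120.3 and 143 CPM with vehicle and 72.4, 75.9 and 69.3 with AG636. Both groups of mice were fully separated, with log2 fold changes of -0.99 and -0.79 (SE 0.13 and 0.13, edgeR adjusted p = 0.00298 and 0.00543). The lectin chaperone *Canx*, the membrane-bound relative of *Calr*, had 590.3, 631 and 562 CPM with vehicle and 437, 391 and 316 with AG636, a log2 fold change of -0.64 (edgeR adjusted p = 0.0116). *Manf*, a secreted BiP partner induced by ER stress, and *Creld2*, named after its values were seen, had log2 fold changes of -0.72 and -1.06 (edgeR adjusted p = 0.0126 and 0.0251).

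Of 17 other disulfide isomerases and oxidases, *Erp29* was called lower (log2 fold change -0.46, edgeR adjusted p = 0.0158) and *Qsox1*, an oxidase of the Golgi and secreted space, was called higher (0.51, edgeR adjusted p = 0.0230, both). *Naa25* overlaps *Erp29* on the opposite strand by 2766 bases and had 3543 counts in total against 9747. Of 19 genes of ER-associated degradation, *Derl1* was called lower, from 179, 178 and 182 CPM to 137, 132 and 123 CPM (log2 fold change -0.46, edgeR adjusted p = 0.0180), and the list median was -0.07. Of 14 genes of translocation and signal peptide removal 3 were called lower: *Sec61a1*, the channel subunit, and *Sec11a* and *Spcs2* of the signal peptidase, with log2 fold changes of -0.58, -0.46 and -0.38 (edgeR adjusted p = 0.00955, 0.0350 and 0.0396). The shares called lower in the disulfide, degradation and translocation lists were 5.88%, 5.26% and 21.4%. Over all genes tested, 11.0% were called lower and 10.3% higher. The disulfide and degradation shares rest on 1 gene called lower each, so no difference from this background is read from them.

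Of 17 genes of N-glycan transfer and the lectin cycle, 16 had a fitted value below 0 and 6 were called lower, with a median of -0.37. Over all genes tested, 47.7% had a fitted value below 0 and 11.0% were called lower, with a median of 0.03. *Mogs*, the glucosidase that trims the first glucose from new glycans, had 451, 394 and 397 CPM with vehicle and 228, 202 and 191 CPM with AG636. Its log2 fold change was -1.0 (SE 0.12, edgeR adjusted p = 0.00225). *Dpagt1*, which uses UDP-N-acetylglucosamine to start the lipid-linked glycan, had 57.2, 74.8 and 66.9 CPM with vehicle and 42.9, 35.5 and 44.2 with AG636, a log2 fold change of -0.70 (edgeR adjusted p = 0.0142). *Rpn1* and *Magt1*, subunits of the oligosaccharyltransferase complexes, had log2 fold changes of -0.52 and -0.56 (edgeR adjusted p = 0.0120 and 0.0179).

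The promoter elements shown above were then set beside the changes in expression. Of the 8560 tested genes with a promoter window, 22 had an ERSE or ERSE-II, 5 of them among the 10 genes described here. Of the 22, 7 were called lower and 0 higher by edgeR's quasi-likelihood test, against 11.0% and 10.3% of all genes tested. *Hspa5*, *Hsp90b1* and *Pdia6* were called lower and *Calr* and *Herpud1* were not. Of the 17 other genes 10 had a fitted value below 0 and 6 above 0, and 4 were called lower, the cochaperone *Dnajb11*, *Canx*, *Creld2* and the ribosomal RNA processing gene *Rcl1* (log2 fold change -0.97, edgeR adjusted p = 0.00591). The value furthest above 0 was that of the oxidase *Ero1lb*, with a log2 fold change of 0.78 that was not called (SE 0.37, edgeR adjusted p = 0.157). *Sdf2l1*, with the lowest log2 fold change of the 10 genes, had no full element in its window. The set of genes with these letters was drawn up after the changes were seen and was not tested.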

How the data were processed

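RNA of sorted I1DN cells was sequenced from 3' end libraries, 3 vehicle and 3 AG636 mice. The authors trimmed the reads with cutadapt, aligned them to mm10 (HISAT2) and assigned them to genes (featureCounts, Subread). They deposited raw counts, with no normalization. The annotation release, the strand setting and the handling of multi-mapped reads are not given in the sources used here. GENCODE symbols matched 54723 of 54838 identifiers, and 98.7% of matched genes had the same start and end.

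Genes were kept by filterByExpr (minimum count 10, minimum total 15), scaled by TMM and compared with edgeR's quasi-likelihood test (edgeR 4.0.16, R 4.3.3) without a block. A gene was called under 0.05 after Benjamini-Hochberg adjustment over all genes tested. The study used limma. Standard errors are the log2 fold change divided by the square root of F. Fits were tested on simulated data. Alternatives were DESeq2 1.42.0, limma-voom (limma 3.58.1), 3 scalings, 2 filters, a replicate block and leaving out each mouse. The chi-square statistic per degree of freedom between replicates was 6.22 to 14.6, so each sample was counted once. The sources tie samples to mice, so p-values measure the spread between mice.

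The 10 genes, the pathway and marker lists and the rules were chosen with earlier results of these data known, so no list was tested as a set. Named are all 10 genes, *Ern1*, *Eif2ak3*, *Atf6*, *Atf4*, *Ddit3* and up to 4 called genes per list with the lowest adjusted p. The pathway genes *Nupr1*, *Ppp1r15a*, *Creld2*, *Atf6b* and *Ero1lb* are named outside this rule. Promoter windows were matched by symbol or, for 136 genes, by Entrez ID, and found for 85 of the 102 other pathway genes and 8560 of the 11092 genes tested.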

Additional observations from a re-analysis of the deposited data

How the results depend on the processing

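Of the 10 genes, 4 were called lower, and the number was 3 or 4 under DESeq2, limma-voom, the other scalings, the stricter filter and the replicate block. Without a filter on low counts 7 were called, and the cause was not tested. Leaving out single mice gave between 1 and 6, the 1 without AG636 replicate 3, and 0 were called higher under every alternative. The median log2 fold change of the 10 genes stayed between -0.67 and -0.38. *Xbp1*, never called, ranged from -0.26 to 0.22 when a mouse was left out and turned above 0 with library size alone (0.02), without vehicle replicate 3 (0.22) and without AG636 replicate 2 (0.03). Of the other pathway genes 21 were called lower, between 18 and 26 under other settings with all mice and between 8 and 21 when a mouse was left out. The number called higher was 1, and 2 with library size alone, 2 without a filter and between 0 and 3 when a mouse was left out. With library size alone, 913 of all genes were called lower and 1483 higher, against 1222 and 1146. Same-numbered samples are different mice, and their deviations from the group means had correlations of -0.06, -0.18 and 0.22, so the numbers do not pair the samples. With a replicate block 4 of the 10 genes and 19 other pathway genes were called lower. *Pdia3* and *Herpud1* passed the threshold without a filter and under no other alternative, and *Calr* also without vehicle replicate 1.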
